A study of Mus musculus with 33 samples.

Results

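S-phase crypt cells are the cells of the intestinal crypt that are copying their DNA. Here they were taken from an atlas of the aging mouse colon, in which single cells of 33 libraries from 11 female C57BL6/J mice were sequenced. Cells with at least 10 UMIs of Ube2c, Cdc20, Ccnb1, Cenpf, Birc5 and Cenpa together per 10000 were set aside as cells in G2 or mitosis, and so were cells with at least 1 UMI of Lgr5, a marker of crypt base stem cells. A UMI (unique molecular identifier) stands for 1 captured RNA molecule. The remaining cells of each library were ranked by their UMIs of Mcm2, Mcm3, Mcm4, Mcm5, Mcm6, Mcm7, Hells, Cdt1, Cdc6, Rrm2 and Pcna per 10000 UMIs, here called the score, and the top 10% was kept. This left 1945 of 23762 cells (8.19%), out of 19427 cells ranked. The 11 genes that gave the score therefore describe how the cells were chosen and are not a finding.

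Young and old mice were compared, all wild-type animals that were group housed in a specific pathogen-free facility. The young group held 5 mice of 8 to 20 weeks and the old group 6 mice of 90 to 108 weeks. Epithelial crypts were isolated separately from cecum, proximal and distal colon, dissociated, and sorted for EpCAM, a surface protein of epithelial cells. The chosen cells numbered 940 in young and 1005 in old mice, and 790 in the cecum, 650 in the proximal colon and 505 in the distal colon. Each mouse gave 1 library per compartment, so the mouse is the replicate and the cells of a library are not.

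In the crypt, stem cells at the base give rise to transit-amplifying progenitors, which divide several times before they become absorptive colonocytes, mucus-secreting goblet cells or rarer secretory types. Before S phase, the origin recognition complex, Cdc6 and Cdt1 load the Mcm2 to Mcm7 helicase on DNA. In S phase, Cdc45 and the GINS proteins switch the helicase on, polymerases held by the sliding clamp Pcna copy both strands, and ribonucleotide reductase and thymidylate synthase supply the nucleotides. Most of these genes are known targets of E2F transcription factors, which are held back by the retinoblastoma protein and set free by cyclin D and cyclin E kinases.

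Because the genes that chose the cells are known as E2F targets, their promoters were searched for 4 E2F motif spellings, TTTCGCGC, TTTGGCGC, TTTCCCGC and TTTGCCGC, on both strands. The window ran from 250 bases before to 50 bases after the start in the RefSeq promoter table of GRCm38.p6. Such letters lay in any listed promoter of 7 of the 10 listed ranking genes. This was so for 704 of 27025 genes in the table (2.61%) and 397 of the 7905 listed genes that entered the age comparison (5.02%). Mcm2, Rrm2 and Pcna held none of these spellings. The stretches around the motif follow for genes that the results turn on, read 5′ to 3′ on the strand of the gene, with the motif in capitals. In Mcm5 and Mcm6 the capitals hold a pair of overlapping spellings, 1 on each strand.
Mcm5: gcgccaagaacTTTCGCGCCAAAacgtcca
Mcm6: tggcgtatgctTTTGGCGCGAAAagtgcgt
Mcm7: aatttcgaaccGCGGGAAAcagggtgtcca
Hells: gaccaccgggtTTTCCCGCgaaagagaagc
Cdc6: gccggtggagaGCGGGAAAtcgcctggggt
Uhrf1: cccgagtcgggTTTCGCGCgcccaggcgtc

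These stretches lie at chr8:75109345-75109374 (plus strand) for Mcm5, chr1:128359797-128359826 (minus strand) for Mcm6, chr5:138172030-138172059 (minus strand) for Mcm7, chr19:38930917-38930946 (plus strand) for Hells, chr11:98908002-98908031 (plus strand) for Cdc6 and chr17:56304117-56304146 (plus strand) for Uhrf1. The printed motif begins 153 bases before the start given in the promoter table in Mcm5, 110 in Mcm6, 165 in Mcm7, 62 in Hells and 138 in Cdc6. Mcm6 holds a further spelling 47 bases before the start, and Mcm7 a further 1 at 16 bases after it. Mcm7 has 2 listed promoters, of which 1 holds a spelling. Uhrf1 brings the maintenance DNA methyltransferase to newly copied DNA and was not used for the ranking. Its motif is 185 bases before the start of 1 of its 2 listed promoters. That stretch lies inside the annotated gene (chr17:56303321-56323486). By the same annotation, the printed stretches of Mcm7 (chr5:138164583-138172422), Hells (chr19:38930915-38971051) and Cdc6 (chr11:98907801-98923940) also lie inside their genes. Those of Mcm5 and Mcm6 do not. The same search found a spelling in 8 of 19 listed replication fork genes, 6 of 12 genes of the G1/S step, 4 of 12 of chromatin copying, 3 of 10 of origin licensing and firing, and 4 of 11 of repair. It found 0 in 9 nucleotide supply genes, 13 colonocyte genes and 7 goblet cell genes, and 1 in 19 genes of G2 and mitosis. These are letter matches and not measured binding sites.

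How far the top 10% reached into S-phase cells differed between libraries. The lowest score of a chosen cell ranged from 1.49 per 10000 UMIs in the distal colon of Old 2 to 19.9 in the proximal colon of Old 1, and the highest score just outside ranged from 1.43 to 16.3. In the distal colon of Young 5 a chosen cell had a median of 1 UMI of the 11 genes, and its score was 4.496 at the median. The distal colon of Old 2 had a median score of 3.76. Counts of genes called between compartments are therefore also given for cells with a score of at least 10. Of all the chosen cells, 1472 had a score of at least 10. In the plot of scores by library, the distal libraries lie low.

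**Figure D1:**
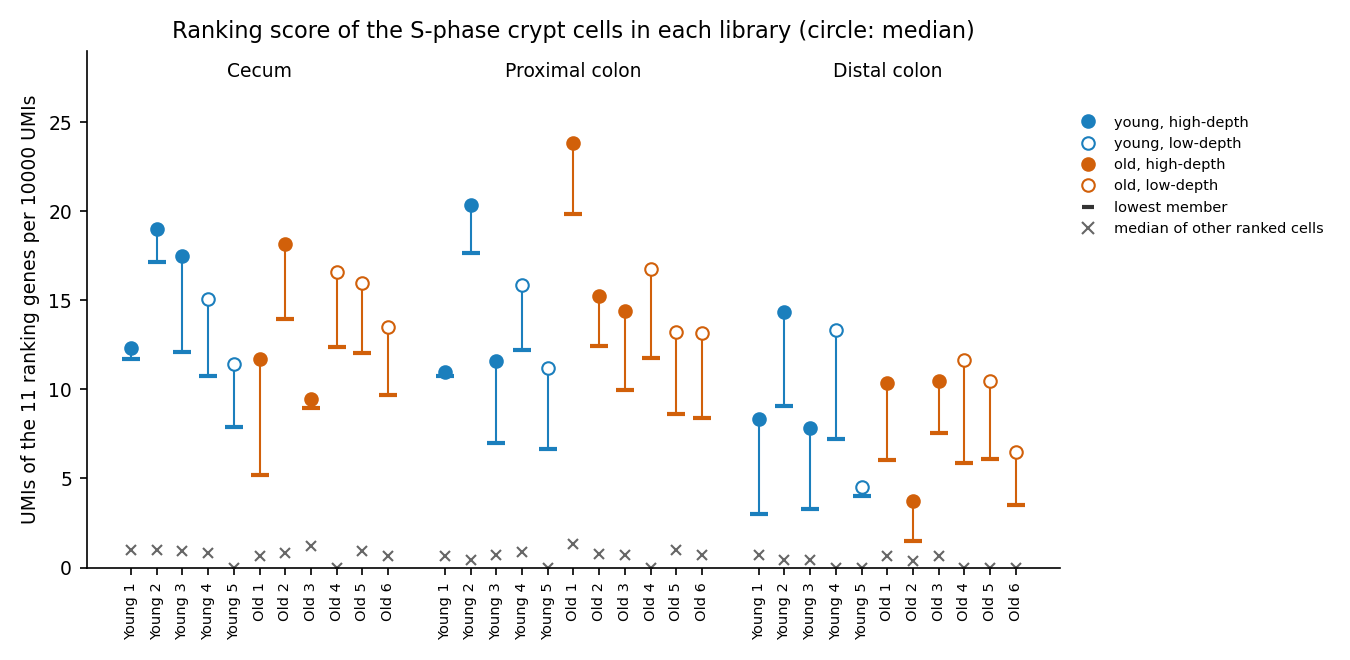
UMIs of the 11 ranking genes per 10000 UMIs (vertical axis) in each of the 33 libraries, grouped by compartment; circles are the median of the chosen cells, dashes the lowest chosen cell and crosses the median of the other ranked cells. The distal colon of Old 2 and of Young 5 have the lowest medians, 3.76 and 4.496.

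Depth split the mice into sets. Young 1 to 3 and Old 1 to 3 had median UMIs per cell of 28056 to 36341, and the other 5 mice 3982 to 10039. The study used 2 kits and does not say which mouse had which, so the sets are called high-depth and low-depth here. Chosen cells came mostly from low-depth mice (1678 against 267), and Young 1 had 15 of them, too few for the age comparison. The 23762 cells had 23536 distinct barcodes, of which 226 occurred in more than 1 mouse, and this was so for 1 barcode among the chosen cells. Immune and stromal RNA was close to absent from the chosen cells. The 13 lymphocyte genes together reached a median of 0.759 UMIs per 1000000 UMIs (CPM) over 10 mice, with 5 of 13 at 0 in all, and the 6 stromal and endothelial genes found in the files reached 2.44. The cells were epithelial, with Epcam at a median of 1960.2 CPM.

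The 4 genes given as markers of these cells were high, as the choice of cells makes them. Mcm6, a subunit of the helicase, had 184 CPM in the lowest, 218 in the median and 263 in the highest of the 10 mice with at least 20 chosen cells, against 11.6 to 34.9 in the other ranked cells. Hells, a chromatin remodeller that aids DNA methylation, had 115 to 250 CPM with a median of 168, against 6.53 to 26.7. Cdt1, the licensing factor that is destroyed once S phase begins, had 77.4 to 157 CPM with a median of 99.1. Pcna, the sliding clamp, had 76.8 to 194 CPM with a median of 93.1, against 12.6 to 28.4. No mouse overlapped between the chosen and the other cells for any of the 4. Over all 11 ranking genes, the median log2 ratio of chosen to other ranked cells ran from 2.52 for Pcna to 3.81 for Cdc6.

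Genes of DNA replication outside the ranking were raised with them. All comparisons with the other ranked cells are descriptions, since the cells were chosen by S-phase genes. As background, 2847 genes outside the rule had at least 50 CPM in the chosen cells. Their median log2 ratio was 0.10, and 183 (6.43%) lay above 1. List genes needed a mean of 5 CPM in the chosen cells, so genes could enter either set by being high there. The share of all genes that were higher, or lower, in every mouse was not counted. Such counts, here and for the later lists, are therefore given without a background. Above 1 lay 14 of 14 origin, 24 of 24 fork and 10 of 10 nucleotide genes. So did 14 of 14 chromatin, 15 of 15 repair and 12 of 16 G1/S genes. Among origin licensing and firing genes, 14 of 14 were higher in every mouse, with a median log2 ratio of 2.39. Cdc45, which activates the helicase, had 28.0 to 61.2 CPM with a median of 37.2, against 1.22 to 3.14. Gins2, of the GINS complex, had a median of 94.9 CPM against 10.6.

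Fork genes were higher in every mouse in 24 of 24 cases (median log2 ratio 2.60). Clspn, which encodes the checkpoint mediator claspin, had the highest ratio of any gene outside the rule at this level. Its log2 ratio was 4.05, with 29.3 to 131 CPM in the chosen cells and 1.22 to 7.41 in the others. Lig1, the ligase that joins Okazaki fragments, had 128 to 232 CPM with a median of 173, against 8.69 to 24.5. The single-strand binding subunit Rpa2 had a median of 118 CPM against 13.6.

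All 10 nucleotide supply genes were higher in every mouse (median log2 ratio 2.13). Thymidine kinase Tk1 had a median of 140 CPM against 15.9, and thymidylate synthase Tyms 236 against 50.7. Rrm1, the large subunit of ribonucleotide reductase, had 118 against 14.2. In the cells set aside for G2/M genes, Tk1 had 155, Tyms 211 and Rrm1 96.2 CPM. Of the genes of chromatin copying, 14 of 14 were also higher than in the other ranked cells of every mouse (2.26). That list summed to a median of 3032 CPM in the chosen and 3109 in the G2/M cells. Uhrf1 had a log2 ratio of 3.71 with 55.4 to 168 CPM against 2.83 to 10.6, and the histone chaperone Asf1b one of 3.90. Of 16 repair and checkpoint genes, 15 had at least 5 CPM in the chosen cells and these were higher in every mouse (2.99). In the G1/S list, 15 of 16 were higher in every mouse (1.39). The exception was Rb1, the retinoblastoma gene, with 16.9 CPM against 16.2.

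Genes on none of the lists were also among the 20 highest ratios outside the rule, such as Fam111a (3.77), Slfn9 (3.53) and Pclaf, which encodes a Pcna-binding protein (3.53). Dtl, whose product marks Cdt1 for destruction on Pcna, had a log2 ratio of 3.20. Clspn, Pclaf, Lig1, Tk1, Gins2, Mcm7, Fam111a and Top2a each overlap a gene on the opposite strand. No source used here says whether counting used strand. If it did not, part of their reads could belong to the overlapping gene. Not every named gene was checked for overlaps.

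The chosen cells were also set beside the cells in G2 or mitosis. This too is a description, since the rule used G2/M genes to set those cells apart. Cyclin E1 (Ccne1), which drives entry into S phase, had a median of 47.0 CPM in the chosen cells, 7.58 in the cells set aside for G2/M genes and 3.50 in the other ranked cells. E2f1 had 42.1, 6.58 and 4.01 CPM in the same order. The uracil glycosylase Ung was even lower in the G2/M cells than in the other ranked cells, with 109, 7.92 and 22.8 CPM. Pclaf was about as high in both cycling sets (567.7 and 597 CPM). Late genes were higher in the G2/M cells than in the chosen cells. Top2a, which untangles copied chromosomes, had 159 CPM in the chosen and 353 in the G2/M cells, and the proliferation marker Mki67 118 and 474 CPM. Of the 22 genes of G2 and mitosis outside the rule, 20 were still higher in the chosen than in the other ranked cells of every mouse. The median log2 ratio of this list was 2.26, and 19 of the 22 lay above 1. Cyclin B2 (Ccnb2), a cyclin of mitosis, was not among these, at 20.5 CPM in the chosen, 23.3 in the other ranked and 288 in the G2/M cells.

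The histone genes split. Of 67 in the files, 13 reached a mean of 5 CPM in the chosen cells, of which 6 were higher and 3 lower in the chosen cells of every mouse. Hist1h1b, a replication-dependent linker histone, had a log2 ratio of 3.15, but ranged from 5.62 to 405 CPM over mice. Hist1h1c had a ratio of −2.01, with 14.1 to 83.6 CPM against 81.4 to 296, and Hist1h2bc one of −1.76. Hist1h1c and Hist1h2bc are known also to give polyadenylated RNA outside S phase. Most replication-dependent histone RNA has no poly(A) tail, and the library captures RNA by poly(A), so these levels do not measure total histone RNA. Histone copies of near-identical sequence can share reads.

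The cells set aside for Lgr5 alone held S-phase cells too. The 11 ranking genes together had a median of 616 CPM in the Lgr5 cells, 1442 in the chosen, 383 in the G2/M and 150 in the other ranked cells. Of the set-aside cells, 392 with Lgr5 and 318 with G2/M genes scored at or above the cut of their library. The share of cells with an Lgr5 UMI ran from 0.990% in the distal colon of Young 5 to 40.4% in the proximal colon of Old 1, libraries with median UMIs per cell of 2998 and 18956. With Lgr5 cells kept and ranked, 1770 of the chosen cells remained and 347 Lgr5 cells came in. Crypt base genes were present in the chosen cells without Lgr5. Of 15, 10 were higher than in the other ranked cells of every mouse, and the list had a median log2 ratio of 0.61. How many of all genes were higher in every mouse was not counted. A log2 ratio above 1 was reached by 2 of 15, beside 183 of 2847 genes (6.43%) at 50 CPM or more. Prom1 was lower in every mouse, and Olfm4 was higher in only 2 of 10. Ascl2, a transcription factor of intestinal stem cells, had a median of 42.1 CPM against 16.8, and 86.4 in the Lgr5 cells.

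Genes of mature cells were low but not absent. For the counts of genes higher or lower in every mouse that follow, the share over all genes was not counted. All 12 goblet genes were lower than in the other ranked cells of every mouse (median log2 ratio −2.07). Their sum had a median of 8735 CPM and ranged from 604 in Young 2 to 19700 in Young 5 over the 10 mice. Colonocyte genes had a median log2 ratio of −1.98, and Krt20, a keratin of the upper crypt, had 0 to 30.6 CPM against 18.1 to 376. Endocrine genes were lowest, with a median log2 ratio of −3.62 over the 5 of 10 that reached 5 CPM in the chosen cells. Pyy, a gut hormone, had a median of 5.41 CPM against 221, but was higher in the chosen cells of 1 of 10 mice. Ribosome biogenesis genes were higher in every mouse in 14 of 16 cases (median log2 ratio 1.00), and 8 of 16 had a log2 ratio above 1. The nucleolar chaperone Npm1 had 1279.8 against 642 CPM, and 1293 in the Lgr5 cells. Of the cell cycle inhibitors and p53 targets with at least 5 CPM, the median log2 ratio was 0.02. Of these, 3 were higher and 2 lower in every mouse. Cdkn2c, the inhibitor p18, had 26.8 CPM against 6.88 and Bax, a mediator of apoptosis, 192 against 146, while Cdkn1a, the inhibitor p21, had 49.98 against 96.7. Free RNA and doublets were not removed, and their part in the goblet and endocrine levels was not tested.

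**Figure D2:**
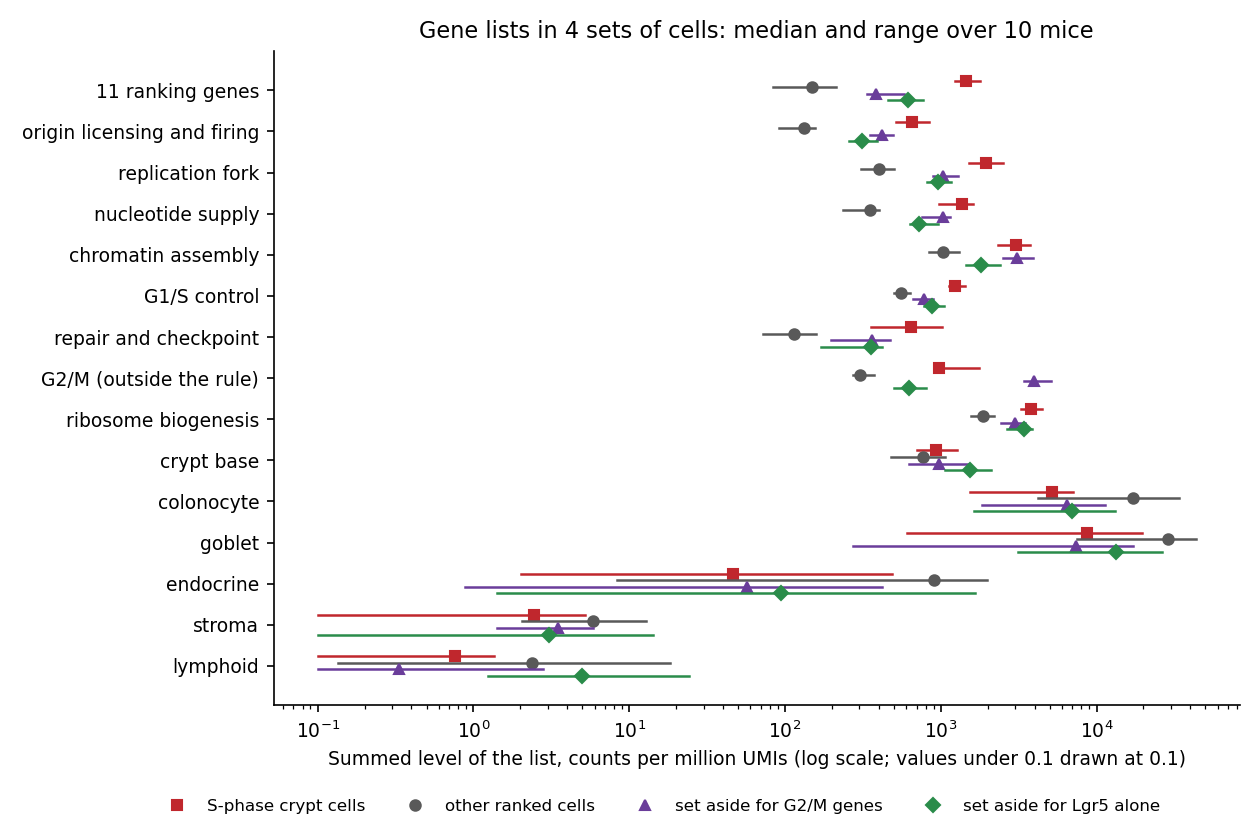
Summed level of 15 gene lists in CPM (log scale) in 4 sets of cells; symbols are the median and lines the range over the 10 mice with at least 20 chosen cells. The S-phase cells (squares) lead on the 11 ranking genes at 1442, while cells in G2 or mitosis (triangles) lead on the G2/M genes outside the rule at 3974. Both leads follow at least in part from the rule that chose the cells.

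The number of chosen cells says nothing of how many cells replicate, since 10% of the ranked cells of each library was taken. A separate count was made by drawing each cell down to 1500 UMIs and counting cells with at least 3 UMIs of the 11 genes, among all cells of the 29 libraries with at least 50 cells. This share was 6.26% ± 2.01 (SD, n = 10 libraries) in the cecum, 5.69% ± 2.42 (n = 8) in the proximal colon and 2.83% ± 1.27 (n = 11) in the distal colon. Without thinning, at 20 UMIs per 10000 or more, the means were 2.17%, 1.49% and 0.951%. The distal colon was lower than the proximal colon in 8 of 8 mice, by 3.23 ± 0.76 percentage points (mean difference ± SE; exact two-sided sign-flip test, p = 0.00781, the smallest this test allows; adjusted over 4 share tests, 0.0156). It fell by 3.48 ± 0.63 points from the cecum, in 9 of 10 mice (exact sign-flip p = 0.00391, adjusted 0.0156). The proximal colon and the cecum did not pass, at −0.615 ± 0.41 points over 7 mice (exact sign-flip p = 0.172, adjusted 0.229). Counting cells with at least 4 UMIs, it did pass, at −0.972 ± 0.25 points and lower in 7 of 7 mice (exact sign-flip p = 0.0156, adjusted 0.0208).

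The same count was made in cells with a Krt20 UMI, which are taken as mature cells of the upper crypt. Pooled over all libraries, 116 of 4977 (2.33%; exact 95% interval 1.93 to 2.79, counting error only) met the same count, at a median depth before thinning of 8832 UMIs against 7972 for all cells. The distal shares of Old 6 (1.71%), Old 2 (1.28%) and Young 5 (0.248%) are below it, and shares at this level are read as background. Of the chosen cells, 678 of 1945 (34.9%) met the count. Both distal differences had the same sign in each depth set, with −4.84 points in high-depth and −2.26 in low-depth mice from the proximal colon and −3.94 and −3.01 from the cecum.

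No age difference in the share was detectable. Old minus young was 0.768 ± 0.98 points over 11 mice, each mouse taken as its mean deviation from the compartment means (exact two-sided permutation test, p = 0.444). The cecum gave 5.62% ± 2.30 (n = 5) in young and 6.90% ± 1.67 (n = 5) in old mice, the proximal colon 4.51% ± 1.75 (n = 3) and 6.39% ± 2.65 (n = 5), and the distal colon 3.103% ± 1.70 (n = 5) and 2.61% ± 0.888 (n = 6). Age groups overlapped in each compartment. Unthinned, the difference between ages turned to −0.176 points.

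**Figure D3:**
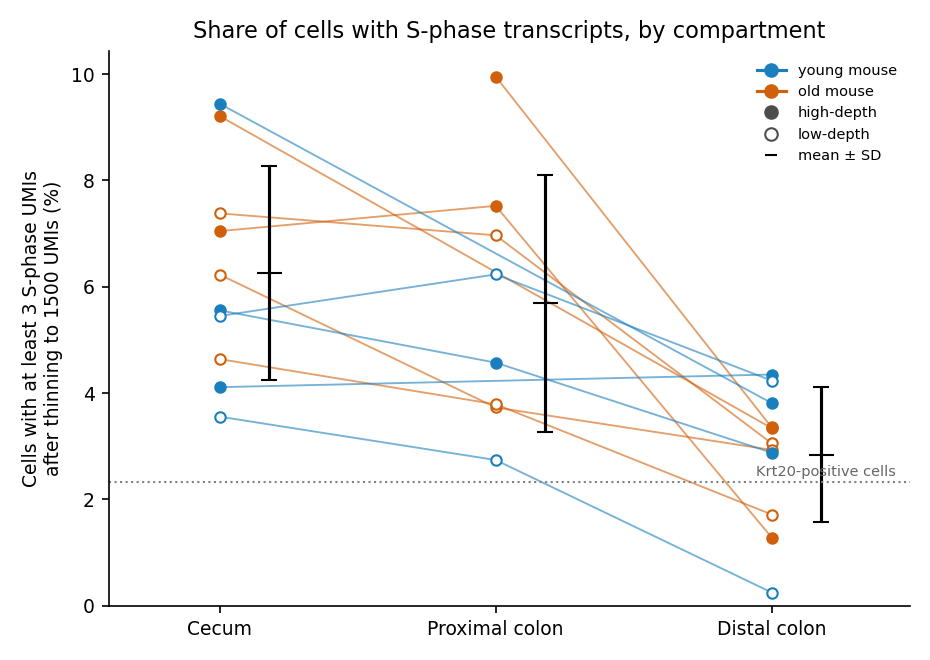
Percent of cells with at least 3 UMIs of the 11 ranking genes after thinning to 1500 UMIs (vertical axis) in each compartment; points are libraries with at least 50 cells, lines join a mouse and pass over a compartment left out, bars are mean ± SD and the dotted line is the share among Krt20-positive cells. The distal colon lies below the proximal colon in all 8 mice with both.

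The chosen cells of the cecum and the proximal colon were compared over 25 libraries with at least 10 chosen cells, from mice with at least 2 such libraries, with the mouse as a block. No gene on the 6 lists of DNA replication, repair and the G1/S step passed, while genes outside them did. Of 7135 genes tested outside the rule, 515 (7.22%) passed an adjusted p of 0.05, 312 higher (4.37%) and 203 lower (2.85%) in the proximal colon. Without the block of mice, 281 passed, and in high-depth mice alone 71. With only cells of a score of at least 10, 332 were higher and 266 lower. On the lists of origin, fork, nucleotide, chromatin, G1/S and repair genes, 0 passed, and the medians of these lists were between −0.10 and 0.03 log2. At an unadjusted p under 0.05 there were 1365 genes in all.

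Papss2, which makes the sulfate donor used to sulfate mucins, is at chr19:32595790-32667187 on the plus strand and was high in the cecal cells. It had 178, 469 and 677 CPM in the lowest, median and highest of 8 cecal libraries, against 42.6, 78.0 and 103 in 8 proximal ones. The groups did not overlap, and the gene fell in 7 of 7 mice (log2 −2.39 ± 0.15, adjusted p = 3.96e-11). Slc37a2, a sugar-phosphate transporter, went from 49.98, 75.5 and 147 to 0, 2.99 and 14.6 CPM (−3.34 ± 0.28). Carboxylesterase Ces1g (−1.66), the sulfur transferase Mpst (−1.72), carbonic anhydrase Car4 (−2.02), Selenbp1 (−1.70), Nudt4 (−1.15), Mpp6 (−1.56) and Akr1c12 (−0.78) were others among the leading lower genes. Each was lower in 7 of 7 mice. Car1, the abundant cytosolic carbonic anhydrase of the colonocyte list, fell too, from a median of 5417 to 1239 CPM (−2.39 ± 0.50).

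In the proximal colon, Rnf186, a ubiquitin ligase of the colonic epithelium at chr4:138967112-138968360 on the plus strand, rose from 25.6, 64.7 and 87.3 CPM to 189, 218 and 270 (log2 1.81 ± 0.12, adjusted p = 1.49e-10). The subunit B of lactate dehydrogenase, Ldhb, was near 0 in the cecum (0, 0.286 and 5.88 CPM) and present in every proximal library (24.4, 46.7 and 73.5). Neither gene overlapped between the compartments. The transcription factor Osr2 rose by 1.92 ± 0.19. Others of the leading higher genes were Gm5485 (1.52), Ndufa4 (1.02), Ifi27l2b (1.49), S100a6 (1.69), Emp2 (1.85), Acsm3 (1.63) and Cyr61 (1.94), each higher in 7 of 7 mice.

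Immediate-early and heat shock genes, which tissue dissociation is known to raise, were higher in the proximal cells for 8 of 15 and lower for 0. Junb, a subunit of the AP-1 factor, rose by 0.73 ± 0.16 and the mRNA-destabilizing protein gene Zfp36 by 0.71 ± 0.17, with both overlapping between compartments. All 8 calls were lost in high-depth mice alone and without the block of mice, and with scores of at least 10, 13 of 15 rose. In the distal colon 10 of 15 were higher and 3 lower than in the cecum, and 0 higher and 3 lower than in the proximal colon. The part of dissociation in the differences between compartments was not tested. On the crypt base list, 3 of 14 tested genes rose, among them Slc12a2, an ion cotransporter (0.81 ± 0.11) and Smoc2 (0.83 ± 0.18), and 0 fell. No goblet gene of 11 passed, but with only cells of a score of at least 10, 2 of 12 were lower, and 1 without the low-score libraries. On the colonocyte list 1 of 11 rose and 4 fell, and with scores of at least 10, 0 of 12 rose and 6 fell.

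Between the proximal and the distal colon 1177 genes passed (16.5%), 596 higher (8.35%) and 581 lower (8.14%) in the distal cells. Without the block of mice 753 passed, and with only cells of a score of at least 10, 376. The genes with the smallest p included Hox genes, which hold position along the body axis, and B3gnt7. B3gnt7 encodes a transferase that extends glycan chains and is at chr1:86302832-86307305 on the plus strand. It had 0, 2.18 and 13.2 CPM in 8 proximal libraries and 77.9, 151 and 315 in 9 distal ones (log2 4.66 ± 0.20, adjusted p = 8.74e-15). The groups lay far apart, and it rose in 8 of 8 mice. The sialyltransferase gene St3gal6 rose by 2.74 ± 0.20, from 14.6 to 85.1 CPM up to 135 to 324, and St6galnac6 by 2.49 ± 0.18. Nans, the synthase of sialic acid, rose by 1.11 ± 0.08.

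The Hox genes moved in opposite directions. Hoxb13, the most 5′ gene of its cluster, had 3.84, 12.1 and 46.4 CPM in the proximal and 196, 253 and 381 in the distal cells (3.80 ± 0.26). Hoxb7 went the other way, from 24.9, 64.4 and 113 CPM to 0, 3.17 and 6.10 (−3.50 ± 0.18). Neither overlapped. Of 10 Hox genes tested, 4 rose (Hoxb13, Hoxa7, Hoxa9 and Hoxa10) and 4 fell (Hoxb4, Hoxb6, Hoxb7 and Hoxb8). Hoxb6 fell by 3.38 ± 0.27 and Hoxb8 by 3.03 ± 0.27 on the log2 scale, while Hoxa9 rose by 0.95 ± 0.19. Per the mm10 annotation, Hoxb13 is at chr11:96194316-96197447, and Hoxb8 (chr11:96281905-96285315), Hoxb7 (chr11:96286623-96290162) and Hoxb6 (chr11:96292476-96301569) follow it on the plus strand. The other ranked cells differed in the same direction, with proximal and distal medians of 48.0 and 1.81 CPM for Hoxb7 and of 16.2 and 408 CPM for Hoxb13. Whether these differences vary between the cell classes was not tested.

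Other genes with higher levels in the distal cells were Oit1 (1.83), Sval1 (5.51), the transthyretin gene Ttr (2.44) and the matricellular gene Nov (3.48). Osr2, up from cecum to proximal colon, fell to 0 to 2.64 CPM in the distal cells (−3.99 ± 0.28). The mitochondrial gene Higd1a fell by 1.26 ± 0.08, and the drug-metabolizing genes Cyp2c65 by 2.65 ± 0.22 and Mgst1 by 1.02 ± 0.09. Ces1g fell by a further 1.84 ± 0.16 and the actin-binding Tmsb4x by 1.16 ± 0.09. Cd44, an adhesion receptor and Wnt target of the crypt base list, fell from 44.2, 119 and 184 to 6.73, 26.4 and 53.1 CPM (−2.09 ± 0.20). B3gnt7, Oit1, St3gal6, Nans, Higd1a and Hoxb6 overlap a gene on the opposite strand, as do Slc37a2, Mpp6 and Acsm3. If counting did not use strand, part of their reads could belong elsewhere. Cyp2c65, Ces1g and Akr1c12 belong to families of similar sequence, so part of their reads could also belong elsewhere.

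Goblet genes were higher in the distal S-phase cells for 9 of 11 tested and lower for 1, Retnlb; their median was 1.72 log2. Agr2, a chaperone for mucin folding, had 465, 1829 and 2677 CPM in the proximal and 1305, 4707 and 9153 in the distal cells (1.94 ± 0.36). Atoh1, the transcription factor that commits cells to the secretory fate, rose from 0, 24.5 and 44.1 to 5.94, 98.6 and 148 CPM (1.89 ± 0.33). Both rose in 8 of 8 mice, and both overlapped between compartments. The Retnlb call did not hold without Young 4 or without Old 3, and the calls of Muc2, Tff3, Clca1 and Spdef were each lost without at least 1 of the mice. With only chosen cells of a score of at least 10, 5 of 12 goblet genes rose and 0 fell (median 1.13). The summed goblet level had a median of 4605 CPM in the proximal and 11904 in the distal libraries, and its part in the other distal differences was not tested.

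On the replication lists some genes were lower in the distal cells. Of these, 10 of 24 fork genes fell, 5 of 10 origin genes, 5 of 10 nucleotide genes, 8 of 14 chromatin genes, 4 of 15 G1/S genes and 2 of 14 repair genes, and 0 of these rose. The list medians lay between −0.38 and −0.24 log2. The score uses genes that move with these lists, so a limit on it sets their levels in part and tests no cause. With cells of a score of at least 10 only, 1 fork gene and 1 G1/S gene passed, 0 passed on the other 4 lists, and the medians lay between −0.03 and 0.06. Without the distal libraries of Old 2 and Young 5, 6 fork and 5 chromatin genes still fell. The summed level of the 11 ranking genes was 1192 to 1794 CPM in the proximal and 558 to 1412 in the distal libraries.

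Distal colon against cecum gave 2097 genes (29.4%), 1071 higher (15%) and 1026 lower (14.4%) in the distal cells. With only cells of a score of at least 10 this was 873. Ces1g fell at each step, with a median of 318 CPM in the cecum, 91.8 in the proximal colon and 26.6 in the distal colon (distal against cecum −3.50 ± 0.15, adjusted p = 1.64e-15). Rnf186 stepped up, with medians of 64.7, 218 and 342 CPM (2.47 ± 0.12). St6galnac6 had 2.94 to 48.1 CPM in the cecum and 172 to 492 in the distal colon (4.42 ± 0.22). None of these 3 overlapped between the end compartments. Papss2 had medians of 469, 78.0 and 85.3 CPM along the same order, and Hoxb7 of 75.2, 64.4 and 3.17 CPM, as the plot by compartment shows.

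Further genes that led in the distal cells were Gm5485 (2.11), St3gal6 (4.57), S100a6 (2.55), Hid1 (2.48), Ifi27l2b (2.02), Itih5 (3.19), Hoxb13 (5.65) and B3gnt7 (4.62). Those that led in the cecal cells were Higd1a (−1.94), Hoxb7 (−3.61), Mpp6 (−1.92), Akr1c12 (−1.26), Mpst (−2.31), Cyp2c65 (−3.34), Car4 (−3.35) and Mgst1 (−1.29). Each went the same way in 8 of 8 mice. On the colonocyte list, 3 of 11 rose and 5 fell. The membrane mucin Muc3 rose from 24.3, 41.2 and 111 to 336, 469 and 692 CPM (3.45 ± 0.23), and Car1 fell by 3.92 ± 0.49 from a median of 5417 to 451 CPM. Neither overlapped. Replication lists again fell in part (13 of 24 fork and 6 of 10 origin genes), and among cells limited by the same score this was 1 of 24 and 0 of 13.

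**Figure D4:**
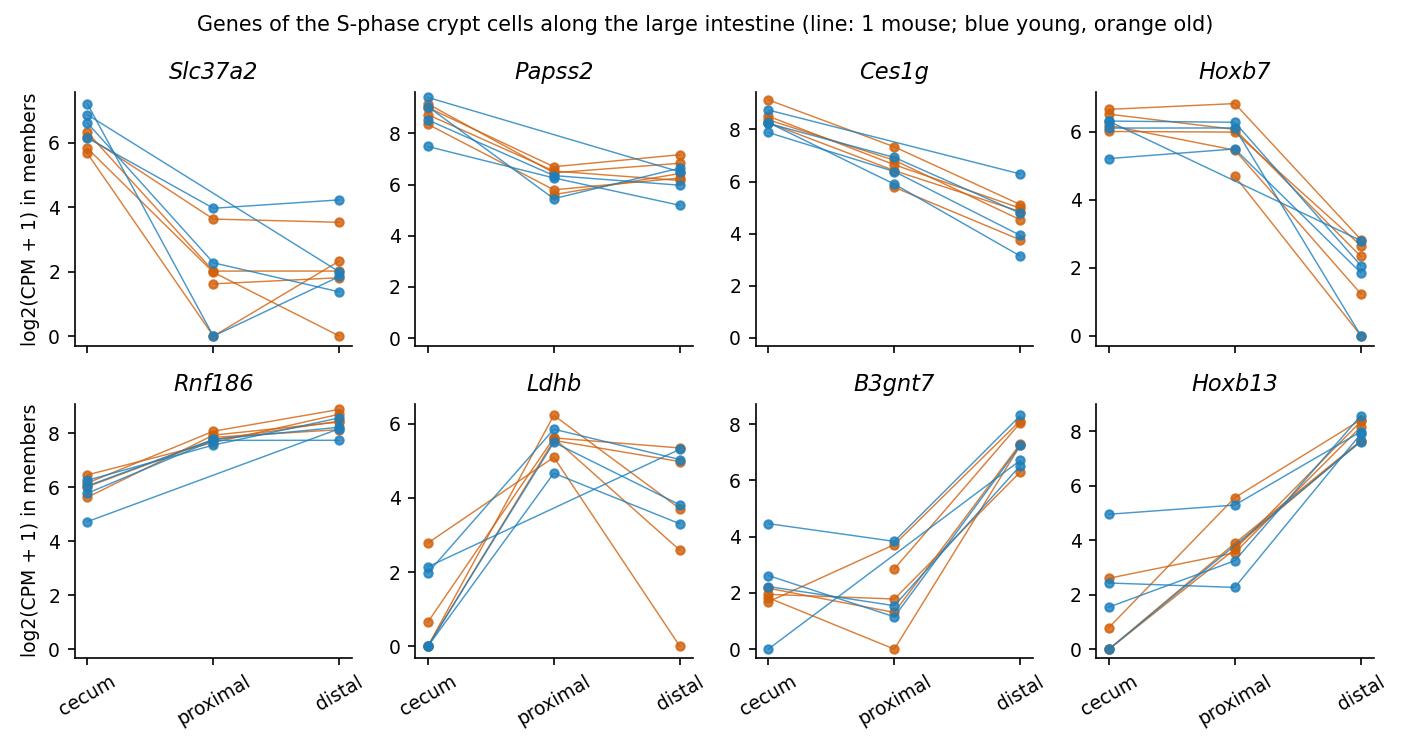
Level of 8 genes in S-phase crypt cells, as log2(CPM + 1), in the cecum, proximal colon and distal colon; each point is a library that entered the fit and each line a mouse, blue for young and orange for old. Hoxb7 lies at or under 6.10 CPM in the distal colon, and B3gnt7 at or above 77.9.

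The sums of 4 young and 6 old mice were compared, with the depth set as a term and the mix of compartments as an offset. Of 9960 genes tested, 3 passed (0.0301%), 1 higher (0.01%) and 2 lower (0.0201%) in old mice, and 431 had an unadjusted p under 0.05. The count was 12 with DESeq2, 14 with the top 20% of each library, 12 with mice of the same number as a block and 0 without the depth term. All 3 lie under the level of 20 CPM set for genes to be named, so they are named here after their values were seen.

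Cox6b2, at chr7:4751792-4753094 on the minus strand, encodes a testis form of a cytochrome c oxidase subunit. It had 15.1, 17.2, 28.7 and 28.9 CPM in the young mice and 4.00 to 8.83 in the old, with a median of 6.13. The age groups did not overlap, and the gene fell by 1.68 ± 0.18 on the log2 scale (adjusted p = 0.000729). The call held without each mouse in turn and in low-depth mice; it was lost in high-depth mice alone and without the depth term. The other ranked cells of the same mice had 9.43 to 17.3 CPM in young and 1.97 to 7.98 in old mice.

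Bex4, at chrX:136138996-136140443 on the plus strand, had 11.04, 19.3, 43.9 and 20.1 CPM in Young 2 to 5 and 4.45 to 11.9 in the old mice. The groups overlapped by 1 young mouse (log2 −1.81 ± 0.25, adjusted p = 0.0127). Ulbp1, a stress-induced ligand of the NKG2D receptor on natural killer and T cells, was higher in the old mice. It had 9.04, 3.58, 1.36 and 2.41 CPM in Young 2 to 5 and 5.89 to 26.7 in the old (1.81 ± 0.27, adjusted p = 0.0262), and the groups overlapped. It lies at chr10:7440362-7473638 on the minus strand, across from Gm46209. Bex4 was not called without Old 4, Old 5, Old 6, Young 3 or Young 4, and Ulbp1 not without Old 2, Old 4, Old 5, Young 3 or Young 4. Over all alternatives, log2 values ran from −2.15 to −1.10 for Bex4 and from 1.51 to 2.06 for Ulbp1. The other ranked cells showed the same directions, at 3.50 to 14.8 against 1.49 to 2.78 CPM for Bex4 and 0.244 to 1.21 against 0.764 to 2.77 for Ulbp1. The number of genes called was 1 without Old 4, Old 5 or Young 3, 5 without Young 2 and 6 without Old 1.

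**Figure D5:**
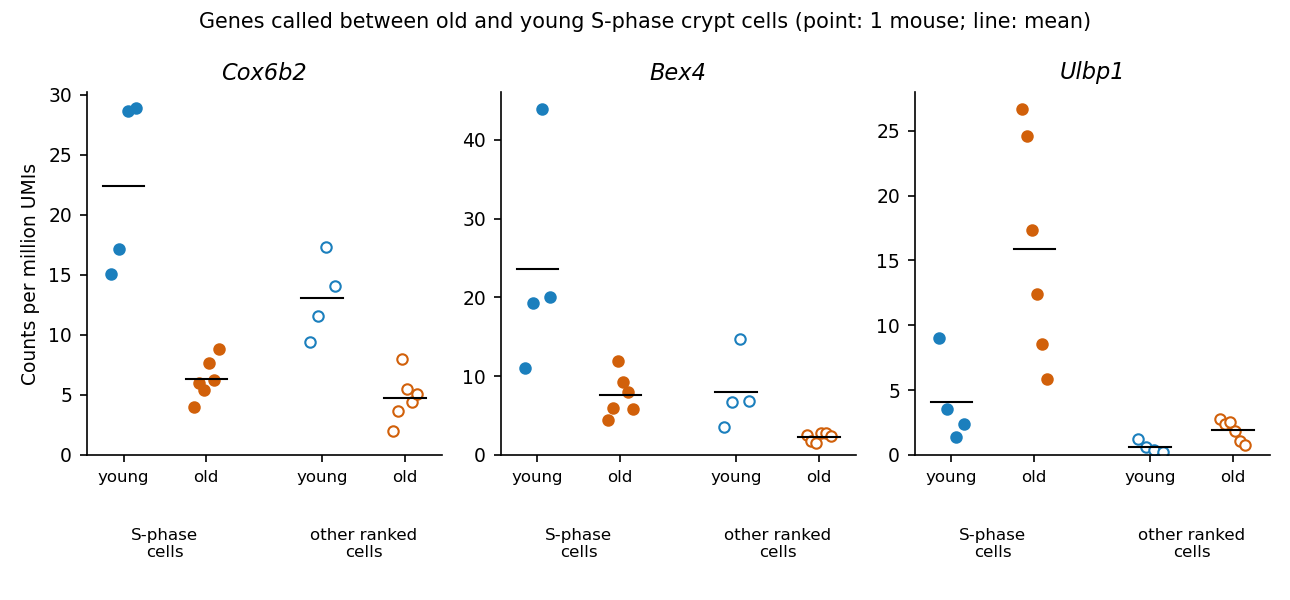
CPM of the 3 genes called between old and young mice, in S-phase crypt cells (filled) and in the other ranked cells of the same mice (open); points are mice and lines means. Cox6b2 separates the ages in the S-phase cells, at 15.1 or more in young and 8.83 or less in old mice.

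Of 14 origin, 24 fork, 10 nucleotide, 14 chromatin, 16 G1/S and 16 repair genes, 0 were called, and the list medians were between −0.04 and 0.07 log2, beside a median of 0.00 over all genes tested. The 11 ranking genes, whose sum the rule sets within each library, had 1258 to 1783 CPM in young and 1236 to 1668 in old mice. Lists with larger medians, none of whose genes passed, were endocrine (−0.96 over 5 genes), histone (−0.41 over 16) and G2/M genes outside the rule (−0.25 over 22). The 4 young histone sums were 1085, 404, 398 and 500 CPM in Young 2 to 5, and the old ones 300 to 714, so the groups overlapped. A miss of the threshold with 4 against 6 mice does not show that levels were equal.

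Age differences were also set against compartment and cell class. No variation of the age difference between compartments passed for any of 7135 genes (0 passed, 339 at an unadjusted p under 0.05; DESeq2 gave 0), the smallest adjusted p being 0.341 for Apob, an apolipoprotein. Nor did a difference between the S-phase and the other ranked cells pass for any of 11698 genes (0 passed, 458 unadjusted; DESeq2 gave 0). The smallest adjusted p was 0.0564 for Insl5, an endocrine peptide, whose age difference was 4.69 ± 0.72 log2 lower in the S-phase cells. Insl5 had 22.9 CPM in the S-phase cells of Young 5 and 0 to 0.803 CPM in those of the other 9 mice, so the value rests on 1 mouse. Apob and Insl5 are named after their values were seen. Cox6b2, Bex4 and Ulbp1 were thus not shown to differ with age more in the S-phase cells than in the others.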

How the data were processed

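UMI counts of 21852 genes per cell were deposited by the authors for 33 libraries. They were made with Cell Ranger on mm10, per the submitters' processing notes; versions, strand setting and cell filters are not given in the sources used here. Libraries held 536778 to 21288806 UMIs. Doublets and free RNA were not removed. Chosen cells were summed per mouse (at least 20 cells) for age, and per library (at least 10) for compartments. Sums were tested with edgeR 4.0.16 (quasi-likelihood test, TMM, prior count 2, filterByExpr) in R 4.3.3, with Benjamini-Hochberg adjustment over all genes outside the 18 of the rule and a threshold of 0.05. The age fit had the depth set as a term and an offset for the mix of compartments. The compartment fit had the mouse as a block, since each compartment comes from the same animals; Old 1 had only a distal library of that size and was left out. Whether young and old mice of the same number were paired could not be told from their deviations from the means. CPM is UMIs per 1000000 UMIs of the summed cells, and log2 ratios of cell sets use CPM plus 1. Shares were tested with exact permutation and sign-flip tests, adjusted over 4. Scripts were tested on simulated data.

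Named genes were, for each comparison, up to 10 higher and 10 lower genes with the smallest p among those called, with a mean of at least 20 CPM and the same sign in both depth sets, then the 20 highest and 10 lowest ratios at 50 CPM or more, and members of gene lists. Some items chosen by this rule are not reported here. The chosen cells and all lists were set with earlier results of these data known. Alternatives were DESeq2 1.42.0, RLE scaling, no filter, other rank cuts, cell minimums and terms, single depth sets and leaving out each mouse. Added after seeing the data were cells with a score of at least 10 and leaving out libraries with a median score under 5. Separate mice were sampled, 1 library per mouse and compartment.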

Additional observations from a re-analysis of the deposited data

Results flagged for a closer look

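Of 43 groups of 4 to 10 samples checked for a sample far from the others, 4 had one, and chance gives about 1 in 20. The histone genes summed to 1085 CPM in the S-phase cells of Young 2, against 398 to 500 CPM in the other 3 young mice. The goblet genes summed to 18128 CPM in Old 1, against 4883 to 9218 CPM in the other 5 old mice. Sums per mouse were not adjusted for the mix of compartments, and 48 of the 57 chosen cells of Old 1 were distal. Over the libraries of the compartment fit, the goblet sum had medians of 6659 CPM in the cecum, 4605 in the proximal and 11904 in the distal colon. The part of this mix was not tested. The endocrine genes summed to 486 CPM in Young 5, against 2.01 to 78.3 CPM in the other 3 young mice. The median score of the chosen cells was 23.9 per 10000 UMIs in the proximal colon of Old 1, which has 3 such cells, against 13.2 to 16.8 in the other 5 old mice.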

How the results depend on the processing

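Of 110 values of the 10 main results under other settings, 69 were kept. A count of genes was kept if within 1.5 times, and a count of 0 only if it stayed 0. A share difference was kept if it had the same sign and stayed on its side of the threshold. The distal share differences in single depth sets, which could not pass, count as not kept. The count of genes called with age (3) was 12 with DESeq2, 0 in high-depth mice, 5 with scores of at least 10, 7 with at least 10 cells per mouse, 0 without the depth term, 7 without the low-count filter, 14 with the top 20%, 6 without cells of high UMIs, and 12 with young and old mice of the same number as a replicate block. Between mice of the same number, the correlations of deviations were 0.41, −0.08, 0.12 and 0.07 for numbers 2 to 5. Among old mice of the same depth set, the closest to Young 2 and Young 4 had the same number. The closest to Young 3 and Young 5 did not. With so few mice this does not settle whether the numbers mark pairs. Without each mouse in turn the count of genes called with age was 1 to 6.

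Proximal against cecum (515) gave 71 in high-depth mice, 281 with no replicate block, 969 with the top 20% and 224 with the top 5%. Distal against proximal (1177) gave 256 in high-depth and 780 in low-depth mice, 376 with scores of at least 10, 753 with no replicate block, 2287 with the top 20% and 494 with the top 5%. Distal against cecum (2097) gave 700 in high-depth mice, 873 with scores of at least 10, 3697 with the top 20% and 973 with the top 5%. Without each mouse in turn these were 367 to 535, 905 to 1200 and 1685 to 2148.

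Age by compartment (0) gave 1 with at least 5 cells per library, 15 in low-depth mice, 6 with scores of at least 10, 5 without the filter, 1 without high-UMI cells and 0 to 2 without each mouse. Age by class (0) gave 1 with scores of at least 10, 1 with at least 10 cells per mouse, 46 without the filter, 3 with the replicate block, 2 with the top 20%, 4 with the top 5% and 0 to 4 without each mouse.

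The age difference in the share turned to −0.176 points without thinning and −0.156 among ranked cells only. Proximal minus cecum was −0.972 points at 4 UMIs or more and passed. In single depth sets, with fewer mice, distal minus proximal was −4.84 and −2.26 and distal minus cecum −3.94 and −3.01. None of these could pass, since the smallest p of the sign-flip test is 0.25 with 3 mice and 0.0625 with 5. Without each mouse the shares ran from −3.57 to −2.74 (distal minus proximal), −3.89 to −3.21 (distal minus cecum), −0.848 to −0.301 (proximal minus cecum) and 0.124 to 1.32 (age). Of 3239 values of 135 gene comparisons, 3004 kept their call, 231 lost it and 4 reversed: Hoxa10 between proximal colon and cecum (0.13) and Car1 between distal and proximal colon (0.74), both in high-depth mice, Retnlb with the top 5% (1.12) and Hist1h1c with scores of at least 10 (−0.12), both between distal and proximal colon. The cause of these changes was not tested. Old 1 and Young 1 were in no compartment fit and Young 1 not in the age fit, so leaving them out could not change those calls. Genes named by p in the compartment comparisons were also chosen for the same sign in both depth sets. The count of kept calls is therefore partly set in advance. The high-depth mice gave 267 chosen cells, which limits the precision there.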
